A study of Mesocricetus auratus with 38 samples.

Results

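The livers of hamsters given the lower dose of combined metabolic activators (CMA) on a high-fat diet (HFD) were compared with those of hamsters given placebo on the same diet. The comparison takes every library labelled HFD + MI_D1 (Dose I, 9 libraries) and every library labelled HFD (10 libraries), which is 19 of the 38 libraries of the study. All animals were male Golden Syrian hamsters with an age label of 22 weeks. The labels do not tie libraries to animals, so 1 animal per library is an assumption, and libraries (livers) are named H110 to H119 for HFD and DI120 to DI128 for Dose I. HFD and Dose I hamsters ate the HFD, which also held added cholesterol, for 12 weeks and were fasted for some hours before liver was taken. In the last 4 weeks Dose I hamsters received 200 mg/kg each of L-carnitine (as its tartrate), N-acetylcysteine (NAC) and nicotinamide riboside (NR) in diluted condensed milk and 400 mg/kg betaine in drinking water, while HFD hamsters received placebo. A control group on a normal diet and a Dose II group with 400 mg/kg of each of those 3 agents and 800 mg/kg betaine are used below only for values side by side. The 4 agents were given together, so the data cannot separate them.

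Each agent enters liver metabolism by a known route. Betaine gives a methyl group to homocysteine and becomes dimethylglycine, which mitochondria turn into sarcosine and then glycine while passing carbon units to folate. NAC is a source of cysteine, which is used for glutathione or oxidised through sulfite to sulfate. NR is a precursor of NAD+, and L-carnitine carries fatty acids into mitochondria for oxidation. Steatosis, the storage of triacylglycerol in hepatocytes, is the condition this diet is used to model.

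Levels are given as CPM, which is counts scaled to a common library total of 1000000 after scaling the libraries to each other, and as the lowest, median and highest library of a group. Of 14631 genes in the table, 9099 had enough counts to be tested. Depth was alike in the groups, with 5201900 to 6498370 estimated counts per HFD library and 4669860 to 6403260 per Dose I library. Within the HFD group and within the Dose I group, no pair of libraries looked like the same library deposited more than one time. Pairs across groups were not examined. Hepatocyte markers dominated all of these livers, with albumin at 11.3% to 15.8% of the counts in HFD and 12.1% to 15.2% in Dose I. In control livers it held 16.9% to 20.0%.

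In Dose I livers 14 genes rose and 3 fell against HFD, at an adjusted p under 0.1 (edgeR's quasi-likelihood F test, adjusted over all tested genes by the Benjamini-Hochberg method, given as edgeR adjusted p from here on). These 17 genes are 0.187% of the genes tested, with 0.154% higher and 0.033% lower. At an unadjusted p under 0.05 there were 844 genes (9.28% of genes tested, 433 higher and 411 lower). Of all genes tested, 4590 had a positive and 4509 a negative log2 fold change. DESeq2, run on the same libraries, called 79 genes (1.6% of the 4926 to which it gave an adjusted p), 56 higher (1.14%) and 23 lower (0.467%), and 14 genes were called by both tools. Passed, rose and fell refer to edgeR throughout, and DESeq2 is named where it is meant. To Cyp26a1, Smim13 and Tmed3, 3 of the 17, DESeq2 gave no adjusted p. By what their products do, the 17 include enzymes of betaine and sarcosine metabolism (Dmgdh, Gnmt, Bhmt2) and of sulfur handling (Sult1a1, Suox). They also include Fcgr4 and Hmox1, both listed as macrophage markers, and Hmox1 is counted among the antioxidant genes as well.

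**Figure D1:**
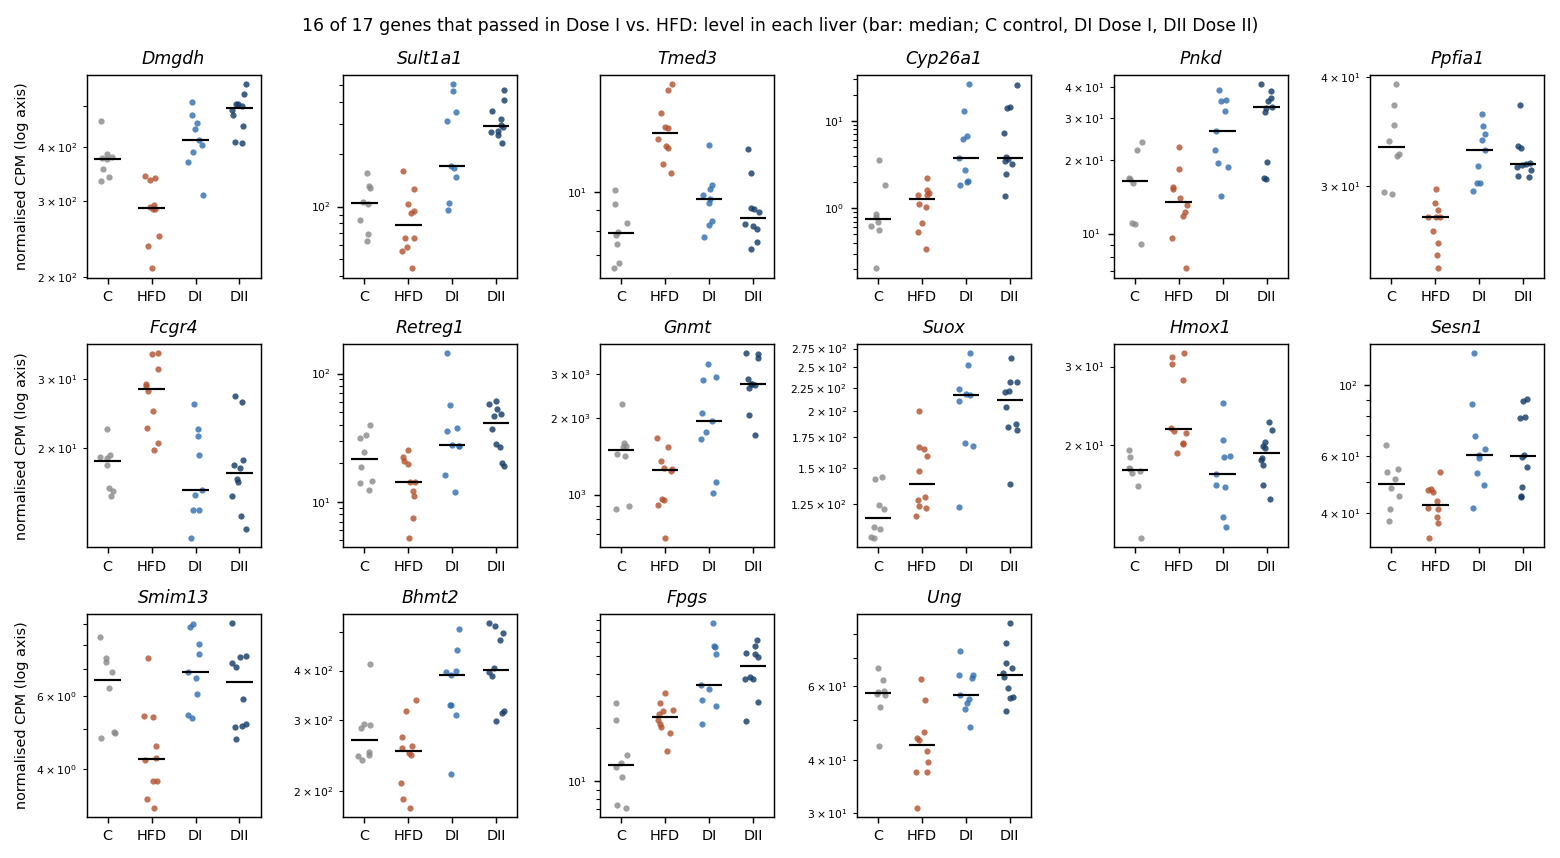
Normalised CPM (log axis) of 16 of the 17 genes that passed in Dose I against HFD, with 1 point per liver and a bar at the group median (8 control, 10 HFD, 9 Dose I and 10 Dose II livers). In Dmgdh 8 of 9 Dose I livers lay above the highest HFD liver, and in Tmed3 8 of 9 lay below the lowest.

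Dmgdh, the mitochondrial enzyme that turns dimethylglycine into sarcosine, had the smallest p of all genes. Its level was 209, 289 and 343 CPM (lowest, median and highest) in HFD livers and 311, 417 and 510 CPM in Dose I livers. Only 1 Dose I liver lay inside the HFD range. The log2 fold change was 0.55 ± 0.09 (SE), with an edgeR adjusted p of 0.00168. In HFD against control Dmgdh had gone the other way, with a log2 fold change of -0.39 (edgeR adjusted p = 0.00157), and the control median of 377 CPM lay between those of HFD and Dose I.

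Gnmt, which makes sarcosine by moving a methyl group from S-adenosylmethionine to glycine, measured 673, 1254 and 1671 CPM in HFD livers and 1015, 1957 and 3296 CPM in Dose I livers. Here 6 Dose I livers exceeded all HFD livers and 2 were below the HFD median. Its log2 fold change was 0.81 ± 0.19 with an edgeR adjusted p of 0.0924. Bhmt2, a homocysteine methyltransferase that uses S-methylmethionine, went from a median of 252 CPM (181 to 338) to 389 CPM (221 to 508), a log2 fold change of 0.56 ± 0.13 at the same adjusted p. Its close relative Bhmt, which uses betaine itself, was not analysed here. Reads of near-identical relatives can be shared out between genes by the counting used.

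Over the 9 tested genes of betaine and sarcosine metabolism, 3 rose, none fell and 8 had a positive log2 fold change. Of all 9099 tested genes, 0.154% rose, 0.033% fell and 4590 had a positive log2 fold change. The median log2 fold change of the list was 0.20, where the median of all tested genes was 0.00. This list and those below were chosen with earlier results of these data known, so such contrasts are no independent evidence. Sardh, which takes the next step from sarcosine to glycine, did not pass, with 0.17 ± 0.11 on the log2 scale (edgeR adjusted p = 0.653). Set against the mean of the HFD livers, the median gene of this list was higher in all 9 Dose I livers, by 0.08 to 0.54 on the log2 scale. HFD livers themselves ranged from -0.25 to 0.35, and 4 Dose I livers exceeded that range. In the methionine cycle and transsulfuration none of 20 tested genes passed and the median was 0.03. Cth, which releases cysteine from cystathionine, had 0.51 ± 0.14 (edgeR adjusted p = 0.147) and was called by DESeq2 (adjusted p = 0.0471).

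**Figure D2:**
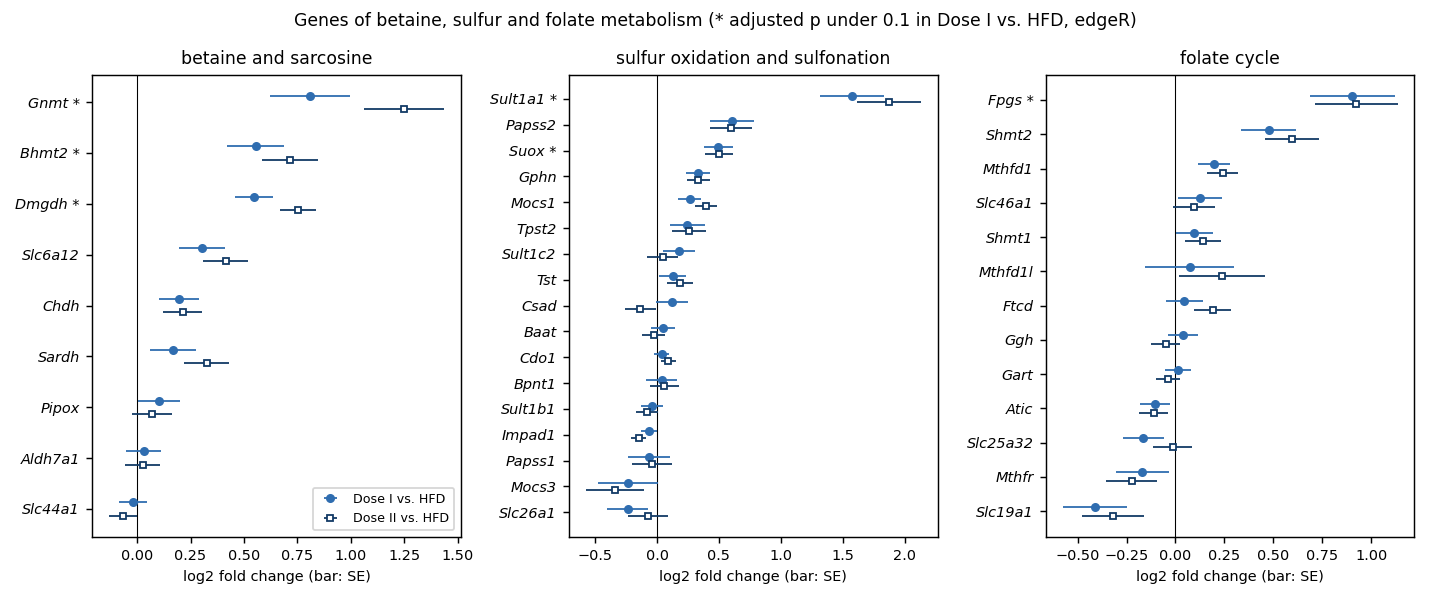
Log2 fold change (x axis, bar is the SE) of every tested gene of betaine and sarcosine metabolism (9), sulfur oxidation and sulfonation (17) and the folate cycle (13), for Dose I against HFD (filled circles) and Dose II against HFD (open squares), which share the HFD livers. Stars mark the 6 genes that passed in Dose I, and most other genes lie near 0.

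Sult1a1, the sulfotransferase that attaches sulfate to phenols, had the largest of the well-supported changes. HFD livers held 43.97, 78.7 and 161 CPM and Dose I livers 95.4, 170 and 511 CPM. All Dose I livers were above the HFD median and 6 were above every HFD liver, but the Dose I livers also differed from each other by more than the HFD livers did. The log2 fold change was 1.58 ± 0.26 with an edgeR adjusted p of 0.00168. Suox, sulfite oxidase, rose from a median of 138.5 CPM (117.3 to 201) to 218 CPM (123.1 to 268), or by 0.50 ± 0.12 on the log2 scale (edgeR adjusted p = 0.0924). It had also been higher in HFD than in control (log2 fold change 0.28, edgeR adjusted p = 0.0804), so Dose I livers lay further from control livers than HFD livers did.

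Of 17 tested genes of sulfur oxidation and sulfonation, 2 rose and none fell, beside 0.154% and 0.033% of all tested genes. The list median was 0.12. DESeq2 called 2 more. These were Papss2, which makes the sulfate donor of sulfotransferases (0.60 ± 0.18, DESeq2 adjusted p = 0.0648), and Gphn, which builds the molybdenum cofactor that sulfite oxidase needs (0.33 ± 0.10, DESeq2 adjusted p = 0.0841). Both missed the threshold in edgeR, with adjusted p of 0.175 and 0.181, and both are named after their values were seen. Cdo1, the dioxygenase that opens cysteine oxidation, was at 634 CPM (568 to 706) in HFD and 690 CPM (572 to 738) in Dose I, a log2 fold change of 0.04 ± 0.06.

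Fpgs, which adds the glutamate tail that keeps folate inside cells, rose from 22.9 CPM (14.8 to 31.2) to 34.7 CPM (21.1 to 76.9), a log2 fold change of 0.90 ± 0.22 (edgeR adjusted p = 0.0924). HFD had itself moved Fpgs up from a control median of 12.4 CPM (log2 fold change 0.72, edgeR adjusted p = 0.0242). It was the only 1 of 13 tested folate cycle genes to pass in edgeR, and the list median was 0.05. Shmt2, the mitochondrial enzyme that passes a carbon unit from serine to folate, had medians of 115.4 and 159 CPM (0.48 ± 0.14, edgeR adjusted p = 0.181, DESeq2 adjusted p = 0.0818). Among 13 serine, glycine and threonine genes none passed in edgeR. Sds, which breaks serine down to pyruvate, was at 40.7 CPM (18.5 to 79.8) in HFD. In Dose I it was at 65.5 CPM (43.9 to 413). Its log2 fold change was 1.28 ± 0.34 (edgeR adjusted p = 0.147, DESeq2 adjusted p = 0.0497). All 9 Dose I livers lay above the HFD median and 3 above every HFD liver. DI127 stood at the top with 413 CPM, and the next Dose I liver was at 129.3 CPM.

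No gene of glutathione metabolism passed among 28 tested, and the list median was 0.10. Among them 22 were positive and 6 negative, beside 4590 and 4509 of all 9099 tested genes. At an unadjusted p under 0.05 there were 8, all higher, where 4.76% of all tested genes were. Gclc, whose product carries out the rate-limiting step of glutathione synthesis, stayed within its spread at 0.04 ± 0.16. Gss, which completes the tripeptide, was at -0.25 ± 0.15. Gstk1, a mitochondrial and peroxisomal glutathione transferase, had 0.29 ± 0.09 (edgeR adjusted p = 0.213) and passed in DESeq2 (adjusted p = 0.0940).

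In the other antioxidant and metal stress genes, 1 of 35 rose and 1 fell, beside 0.154% and 0.033% of all tested genes. Sesn1, a sestrin that restrains mTORC1 signalling, went from 42.4 CPM (33.4 to 53.5) to 60.6 CPM (41.4 to 125.8), a log2 fold change of 0.66 ± 0.15 (edgeR adjusted p = 0.0924). Hmox1, the inducible enzyme that splits haem, went from 21.7 CPM (19.2 to 32.1) to 17.3 CPM (13.1 to 24.9) and fell by 0.47 on the log2 scale (SE 0.11, same adjusted p). Its Dose I median was close to the control median of 17.6 CPM, and 7 of 9 Dose I livers lay below the lowest HFD liver. Mt2a, a metallothionein that binds zinc and copper, had medians of 437 and 1150 CPM but spread widely in both groups (259 to 811 and 382 to 1515). It reached 0.9993 ± 0.26 with an edgeR adjusted p of 0.138 and a DESeq2 adjusted p of 0.0313, and is named after its values were seen.

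Genes tied to NR and L-carnitine showed little. None of 28 tested NAD genes passed, and the list median was 0.09. Nmrk1, the kinase that takes up NR, had overlapping levels of 41.1 CPM (37.7 to 48.6) and 44.3 CPM (32.2 to 47.99) and a log2 fold change of -0.03 ± 0.09. Nmrk2 and Nnmt had no more than 12 counts in any of the 19 libraries and were not tested. Tdo2, which opens tryptophan breakdown toward NAD+, was at 400 CPM (270 to 505) and 577 CPM (375 to 1377), with 0.72 ± 0.19 on the log2 scale (edgeR adjusted p = 0.147, DESeq2 adjusted p = 0.0349).

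Of 38 genes of carnitine use and mitochondrial β-oxidation none passed, and the median was 0.03. Slc22a5, the carnitine transporter, measured -0.22 ± 0.16. Cpt1a, the gate of fatty acid entry to mitochondria, had a median of 186 CPM (85.4 to 287) in HFD and 152 CPM (72.1 to 190) in Dose I, a log2 fold change of -0.37 ± 0.17 (edgeR adjusted p = 0.489). Acsm1, a medium-chain acyl-CoA synthetase, was the member with the smallest p, at 0.24 ± 0.07 (edgeR adjusted p = 0.149, DESeq2 adjusted p = 0.0319).

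Amino acid enzymes leaned upward without passing in edgeR. In branched-chain and lysine degradation 28 of 30 tested genes had a positive log2 fold change, beside 4590 of all 9099. Of the 30, 11 had an unadjusted p under 0.05, all higher. The list median was 0.13, and 6 of 9 Dose I livers exceeded the HFD range of the list. The 23 transaminase and related genes had a median of 0.10 and the 25 urea cycle and proline genes 0.14, with 5 and 7 members at an unadjusted p under 0.05, again all higher. The share of all tested genes that was higher at that p is 4.76%.

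Got1, the cytosolic aspartate aminotransferase, was the only gene of all those tested (0.011%) whose Dose I and HFD livers did not overlap. HFD livers ran from 171 to 219 CPM with a median of 199, and Dose I livers from 220 to 568.1 CPM with a median of 233. It still missed the threshold, with 0.48 ± 0.14 and an edgeR adjusted p of 0.167, and passed in DESeq2 (adjusted p = 0.0584). DI127 supplied the value of 568.1 CPM, and the next liver was at 281 CPM.

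Gpt2, the mitochondrial alanine aminotransferase, had medians of 120 CPM (74.3 to 185) and 201 CPM (107.5 to 386) and a log2 fold change of 0.83 ± 0.21 (edgeR adjusted p = 0.112, DESeq2 adjusted p = 0.0213). Cps1, which starts the urea cycle, was at 4055 CPM (2979 to 5959) and 5284 CPM (4004 to 8250), or 0.42 ± 0.12 (edgeR adjusted p = 0.181, DESeq2 adjusted p = 0.0783). Prodh, which opens proline breakdown, was tighter, at 132.4 CPM (112.96 to 156) and 163 CPM (139 to 195), or 0.30 ± 0.08 (edgeR adjusted p = 0.121, DESeq2 adjusted p = 0.0220). Of the genes that the study names for CMA, 36 were tested. The study took them from Dose II against HFD, which shares these HFD livers, so they are no independent evidence of direction. Cpt1a is among them, though the study names it as not raised. Of the 36, 2 rose (Dmgdh and Gnmt), beside 0.154% of all tested genes, and DESeq2 called 10 higher, beside 1.14%. At an unadjusted p under 0.05 there were 27 higher, beside 4.76%. A positive log2 fold change was found in 35, beside 4590 of all 9099.

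**Figure D3:**
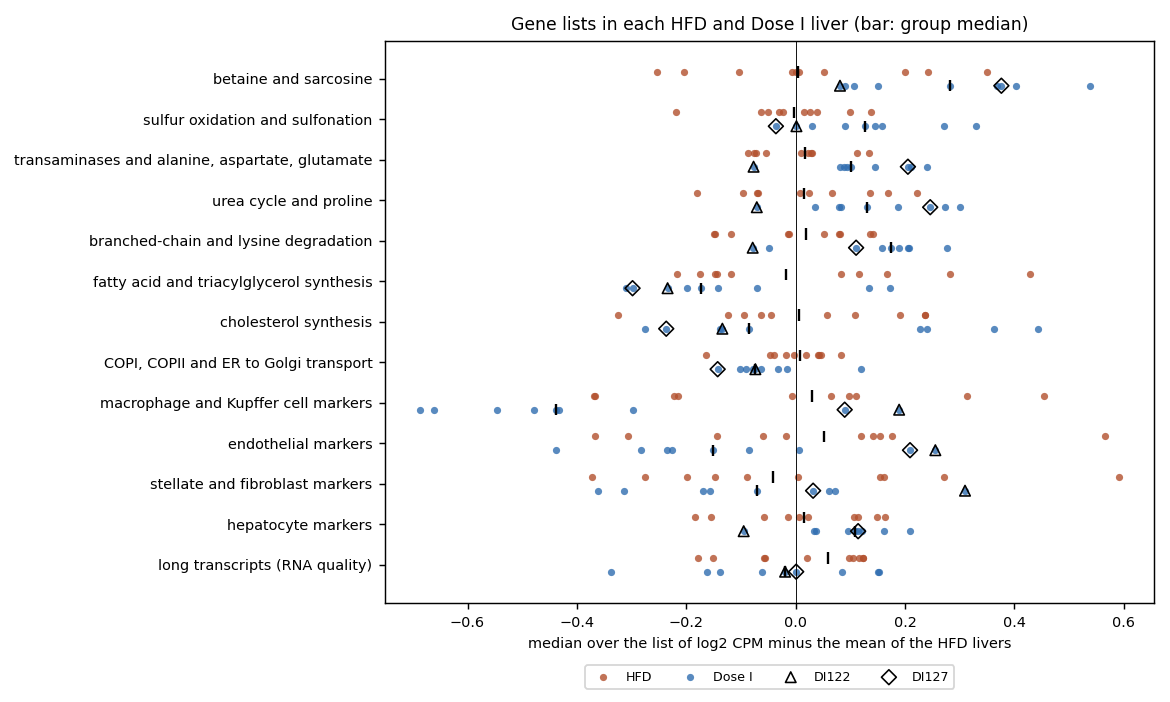
For 13 gene lists, the median over the list of log2 CPM minus the mean of the HFD livers (x axis), with 1 point per HFD or Dose I liver and a bar at the group median. DI122 (triangle) and DI127 (diamond) lie at 0.19 and 0.09 for macrophage markers, where the other 7 Dose I livers lie between -0.69 and -0.30.

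Lipid genes did not pass in edgeR. For fatty acid and triacylglycerol synthesis the median log2 fold change of 30 tested genes was -0.20, and the HFD and Dose I livers overlapped widely. Of the 30, 21 were negative, beside 4509 of all 9099. Acly, which makes the acetyl-CoA for fat synthesis, had the largest drop in value of all genes tested, -1.99 ± 0.58 (edgeR adjusted p = 0.178, DESeq2 adjusted p = 0.0513), but its medians were close, at 23.9 CPM (13.8 to 476) in HFD and 20.6 CPM (8.26 to 47.98) in Dose I. The difference came from a few HFD livers, led by H111 at 476 CPM. Elovl2, which lengthens polyunsaturated fatty acids, had medians of 256 CPM (199 to 334) and 178 CPM (155 to 297) and a log2 fold change of -0.39 ± 0.12 (edgeR adjusted p = 0.193, DESeq2 adjusted p = 0.0826).

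Plin2, the coat protein of lipid droplets, ranged from 348 to 2555 CPM in HFD livers (median 630) and from 18.8 to 890 CPM in Dose I livers (median 278). As many as 5 Dose I livers lay below every HFD liver, yet with -1.21 ± 0.47 the gene did not pass (edgeR adjusted p = 0.411). In the lists of lipid droplet and lipolysis genes (24 tested), peroxisome (37) and cholesterol synthesis (21) no gene passed either, and the medians were 0.05, 0.01 and 0.09. DESeq2 called Lsr, a receptor that takes up triacylglycerol-rich lipoproteins (0.41 ± 0.12, edgeR adjusted p = 0.175, DESeq2 adjusted p = 0.0735), and Abcd3, a transporter of the peroxisomal membrane (-0.44 ± 0.13, edgeR adjusted p = 0.211, DESeq2 adjusted p = 0.0911). Plin2 is named after its values were seen.

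Cyp26a1, the enzyme that clears retinoic acid, had the largest log2 fold change of the genes that passed, 2.60 ± 0.55 (edgeR adjusted p = 0.0492). It was scarce in HFD livers, at 0.34, 1.26 and 2.19 CPM, and reached 1.85, 3.75 and 26.6 CPM in Dose I livers. All 9 Dose I livers were above the HFD median and 6 were above all HFD livers, and the highest of them was again DI127. Without DI127 its log2 fold change was 2.01 and its edgeR adjusted p 0.177. It was the only 1 of 20 tested retinoid genes to pass in edgeR (a list added after the data were seen, with a median of 0.06). Rbp4, the carrier of retinol in blood, was at 0.18 ± 0.06 (edgeR adjusted p = 0.221, DESeq2 adjusted p = 0.0426).

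Cyp26a1 was also the only 1 of 41 tested drug metabolism genes to pass in edgeR, where the list median was 0.07. Nr1i3, the nuclear receptor CAR that controls many drug-metabolising enzymes, had medians of 267 CPM (190 to 308) and 323 CPM (298 to 450), with 7 of 9 Dose I livers above the HFD range (0.36 ± 0.10, edgeR adjusted p = 0.149, DESeq2 adjusted p = 0.0471).

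Most macrophage markers had lower values in Dose I livers. Of 36 tested markers 2 fell and none rose, beside 0.033% and 0.154% of all tested genes. A negative log2 fold change was found in 29, beside 4509 of all 9099. At an unadjusted p under 0.05 there were 21 lower, beside 4.52% of all tested genes. The list median was -0.37, against 0.46 for HFD over control. This list too was chosen with earlier results of these data known. In bulk liver, fewer macrophages and less RNA per macrophage cannot be told apart.

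Fcgr4, an Fc gamma receptor of myeloid cells, fell from 28.3 CPM (19.7 to 34.8) to 15.7 CPM (11.8 to 25.9), a log2 fold change of -0.63 ± 0.14 (edgeR adjusted p = 0.0740). The control median was 18.5 CPM. The other that fell was Hmox1, which Kupffer cells also use when they clear haem and which is the same call as in the antioxidant list. Marco, a scavenger receptor of Kupffer cells, had 91.5 CPM (63.4 to 112.4) in HFD and 58.9 CPM (42.2 to 89.4) in Dose I, with 7 of 9 Dose I livers below the HFD range. Its log2 fold change was -0.54 ± 0.15 (edgeR adjusted p = 0.147, DESeq2 adjusted p = 0.0427), after a rise of 1.01 from control to HFD (edgeR adjusted p = 2.17e-05).

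None of the defining macrophage markers tested passed in edgeR, Marco included. Fcgr4 and Hmox1 are listed markers but not defining ones. The defining markers besides Marco also had negative values. Cd5l was at -0.45 ± 0.14, Csf1r at -0.36 ± 0.12, Mpeg1 at -0.51 ± 0.14, Vsig4 at -0.68 ± 0.27, C1qa at -0.26 ± 0.13 and Cd163 at -0.46 ± 0.27 on the log2 scale, with edgeR adjusted p from 0.158 to 0.634. DESeq2 called 5 markers of the list, all lower, among them Fcgr4, Hmox1, Marco and Mpeg1 (DESeq2 adjusted p = 0.0125, 0.0207, 0.0427 and 0.0562). Cd68 was not analysed here. No defining macrophage marker that was tested was at 0 in any of the 19 livers. The summed level of the listed markers was 919, 1196 and 1515 CPM in HFD livers and 793, 890 and 1313 CPM in Dose I livers. Single livers did not all follow: the median marker of DI122 was 0.19 above the HFD mean and that of DI127 was 0.09 above it, while the other 7 lay 0.30 to 0.69 below it on the log2 scale.

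Other cell types were measured beside this. Of 28 endothelial markers none passed and the median was -0.14, with 4 lower at an unadjusted p under 0.05, where 4.52% of all tested genes were. DESeq2 called 1 of them, Dnase1l3, a secreted DNase, which was at 31.5 CPM (22.2 to 34.5) in HFD and 21.3 CPM (19.5 to 27.2) in Dose I (-0.42 ± 0.12, edgeR adjusted p = 0.181, DESeq2 adjusted p = 0.0697). Of 24 stellate cell and fibroblast markers none passed and the median was -0.06, and hepatocyte markers (19 tested) had a median of 0.07. DESeq2 called 2 stellate markers, both higher, Smoc2 (0.78 ± 0.21, DESeq2 adjusted p = 0.0363) and Vasn (0.60 ± 0.17, DESeq2 adjusted p = 0.0513). H113 was the highest HFD liver for macrophage (0.45), endothelial (0.57), stellate (0.59) and cholangiocyte (0.73) markers. In the same way DI122 was the highest Dose I liver for macrophage (0.19), endothelial (0.26), stellate (0.31) and cholangiocyte (0.60) markers and the lowest for hepatocyte markers (-0.10). DI127 came next to it for macrophage (0.09) and endothelial (0.21) markers but not for stellate (0.03) or cholangiocyte (-0.21) markers. Within the HFD group alone macrophage markers spanned -0.37 to 0.45, and 6 of 9 Dose I livers lay below that range. T cell and neutrophil genes were near the limit of detection, with Cd3e at no more than 4 counts in any library. Of 16 interferon response genes none passed, the median was -0.22 and 5 were lower at an unadjusted p under 0.05, beside the same 4.52% of all tested genes. Their median gene lay below the HFD mean in all 9 Dose I livers (-0.29 to -0.03). No Dose I liver was below the range of the HFD livers (-0.34 to 0.33). The summed level had a median of 2337 CPM in HFD and 2401 CPM in Dose I. How far a change in the mix of cells enters the macrophage and interferon results was not tested.

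Tmed3, a cargo receptor of the p24 family that shuttles between the endoplasmic reticulum (ER) and the Golgi, was the third gene that fell. HFD livers had 11.1, 13.9 and 18.4 CPM and Dose I livers 7.73, 9.61 and 13.03 CPM, and 8 of 9 Dose I livers were below every HFD liver. Its log2 fold change was -0.57 ± 0.11 (edgeR adjusted p = 0.0249). From control to HFD it had risen by 0.82 (edgeR adjusted p = 7.29e-06), and the Dose I median lay between the control median of 7.91 CPM and that of HFD.

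Of 45 genes of COPI, COPII and ER to Golgi transport, 30 had a negative value, beside 4509 of all 9099 tested. The list median was -0.07, and Tmed3 alone passed in edgeR. DESeq2 called 3 others. They were Scfd1, which helps vesicles fuse at the Golgi (-0.33 ± 0.08, edgeR adjusted p = 0.108), and the COPI coat subunits Copb1 (-0.26 ± 0.07, edgeR adjusted p = 0.147) and Copb2 (-0.20 ± 0.06, edgeR adjusted p = 0.204), the last 2 named after their values were seen. Among 58 ER chaperone and unfolded protein response genes only Retreg1 passed in edgeR, and the median was 0.02. DESeq2 also called Cnpy3, a chaperone of Toll-like receptors (0.32 ± 0.08, DESeq2 adjusted p = 0.0427), and Pmm2, an enzyme of protein glycosylation (-0.21 ± 0.06, DESeq2 adjusted p = 0.0562, named after its values were seen). Long transcripts, used as a sign of RNA quality, had a median of -0.04 over 28 genes.

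Retreg1, a receptor that delivers ER membrane to lysosomes, had 14.3 CPM (5.21 to 25.1) in HFD and 27.9 CPM (11.8 to 144) in Dose I. Its log2 fold change was 1.49 ± 0.34 (edgeR adjusted p = 0.0740). DI127 stood at 144 CPM and the next liver at 56.9 CPM. Without DI127 the log2 fold change was 0.99 and the edgeR adjusted p 0.269, so that the call was lost.

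The other genes that rose belong to none of these groups. Ppfia1, a liprin scaffold protein of cell adhesion sites, showed a small but even difference, from 27.6 CPM (24.1 to 29.8) to 33.0 CPM (29.6 to 36.3), or 0.27 ± 0.06 (edgeR adjusted p = 0.0740), and 8 of 9 Dose I livers were above the HFD range.

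Pnkd, a metallo-β-lactamase fold protein, had medians of 13.5 and 26.5 CPM and a log2 fold change of 0.96 ± 0.21 (edgeR adjusted p = 0.0600). Ung, which removes uracil from DNA, went from 43.4 CPM (30.9 to 62.5) to 57.4 CPM (48.1 to 72.8), or 0.42 ± 0.10. Smim13, a small membrane protein, went from 4.24 CPM (3.23 to 7.44) to 6.87 CPM (5.31 to 9.01), or 0.65 ± 0.15. Both had an edgeR adjusted p of 0.0924.

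The Dose II livers were set beside these values. The 2 comparisons share the HFD livers, so likeness between them is partly built in and is not counted as support. Against HFD, Dose II gave a log2 fold change of 0.75 for Dmgdh, 1.87 for Sult1a1, 1.25 for Gnmt, 2.72 for Cyp26a1 and -0.65 for Tmed3. The direct test of Dose II against Dose I, which does not use the HFD livers in its contrast, found 0 of 9099 genes at an adjusted p under 0.1 in edgeR and 0 of 12976 in DESeq2. At an unadjusted p under 0.05 there were 271 genes in edgeR (2.98%) and 336 in DESeq2.

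Among the 17 genes the largest gap from Dose I to Dose II relative to its error was in Gnmt and Dmgdh. Gnmt differed by 0.44 on the log2 scale (95% interval 0.07 to 0.81, not adjusted for the number of genes) and Dmgdh by 0.20 (0.03 to 0.38). For Sult1a1 the difference was 0.30 (-0.20 to 0.80), for Tmed3 -0.09 (-0.31 to 0.14) and for Fcgr4 0.04 (-0.25 to 0.32). The interval of Cyp26a1, -0.75 to 0.996, was too wide to place the doses in either order.

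The number of genes called depended on single livers. Leaving out each of the 19 livers in turn gave from 4 genes (without H113, H117 or H118) to 81 genes (without DI122, with 47 higher and 34 lower), and 41 without DI120. Dmgdh, Sult1a1 and Tmed3 passed in all 19 of these fits. Cyp26a1 passed in 15, Pnkd in 12, Fcgr4 in 11, Ppfia1 and Retreg1 in 10, Gnmt in 9, Hmox1 in 8 and the other 6 genes described in 6 or 7, and no gene of the 17 changed direction. Without DI122 the log2 fold change of Fcgr4 was -0.72, and without DI127 that of Gnmt was 0.70 (edgeR adjusted p = 0.218). With all 38 libraries only 5 genes passed, all higher. Tmed3 and Suox (edgeR adjusted p = 0.166 each), Gnmt, Fcgr4, Hmox1 and Sesn1 (0.124 each), Bhmt2 (0.138) and Fpgs (0.198) were among those lost. Gnmt, Bhmt2, Suox, Fpgs and Sesn1 also did not pass with the libraries compared only, without a filter or in limma.

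**Figure D4:**
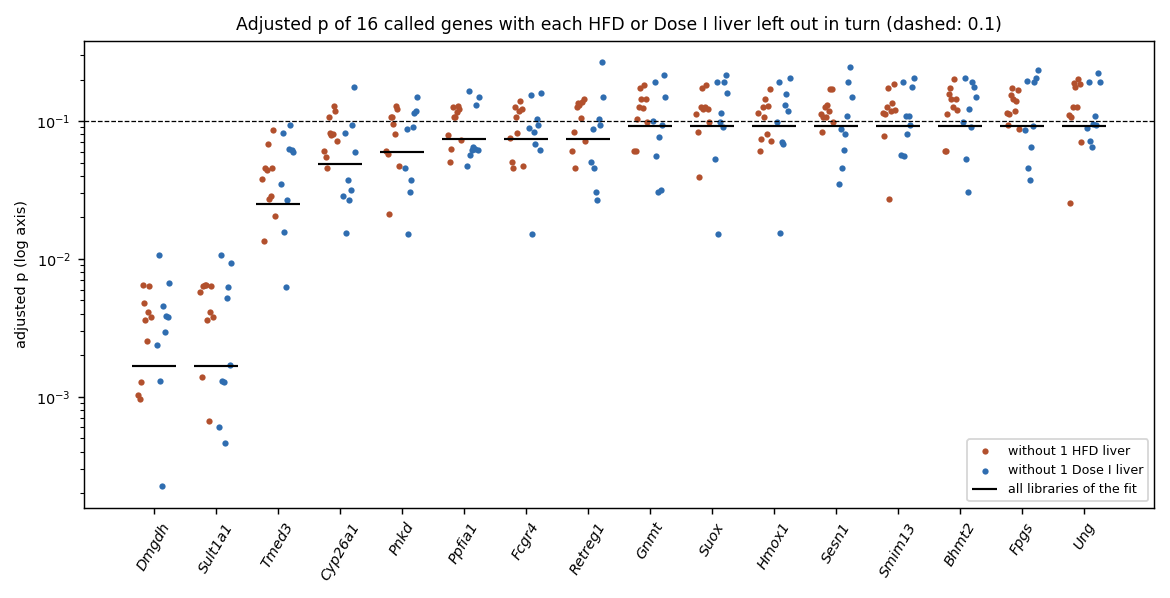
Adjusted p (log axis) of 16 of the 17 called genes with 1 HFD liver (10 points) or 1 Dose I liver (9 points) left out, with a bar for the fit of 37 libraries and a dashed line at 0.1. All 19 points of Dmgdh, Sult1a1 and Tmed3 lie below the line, and the other 13 genes cross it.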

How the data were processed

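Liver RNA was sequenced on the Illumina NovaSeq platform. The authors quantified reads with kallisto on MesAur1.0 (Ensembl release 101) and deposited unnormalized estimated counts per gene symbol, with TPM for those symbols. Estimated counts were rounded to whole numbers. Groups came from the treatment labels, and p-values measure the spread between libraries. Genes kept by filterByExpr were scaled by TMM. The main test was the quasi-likelihood F test of edgeR 4.0.16 in R 4.3.3, with a coefficient for each group and a Benjamini-Hochberg adjusted p under 0.1 as threshold, over 37 libraries, without control 105, which was taken to be the library the study left out after its principal component analysis. The SE was taken from F and the log2 fold change (its absolute value over the root of F), and intervals are 95% intervals from it.

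Gene lists are described by counts and medians with no set test. The members and lists were chosen with earlier results of these data known. Named genes are the 15 called genes with the smallest p per direction, up to 5 called members of each list or otherwise the 2 of smallest p, genes the study names, enzymes that handle the 4 agents and defining cell markers. Genes named outside that rule are said to be. Alternatives were DESeq2 1.42.0, limma 3.58.1 (trend) on log2(TPM + 1) and log2(TPM + 0.1), all 38 libraries, the libraries compared only, RLE scaling, no filter, at least 10 counts in every library, offsets for each library's trend with gene length (lowess span 0.3), an adjusted p under 0.05, and leaving out each library in turn. Genes without a symbol were not analysed here, and 1 called gene is not reported here. No genome sequence was used.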

Additional observations from a re-analysis of the deposited data

Results flagged for a closer look

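Single livers stood apart from the rest of their group in 20 of 146 groups of values examined. Each was flagged because its gap to the nearest liver was a large part of the whole range of its group. The cut-off for that gap would flag about 5% of independent groups with normally distributed values. Here CPM were used on a linear scale, many genes were picked by their values, and the groups share livers. The 20 were therefore not weighed against that rate.

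DI127 was the liver most often apart. It was highest of its group for Got1 (568.1 CPM, next 281), Sds (413, next 129.3), Papss2 (236, next 124.8), Retreg1 (144, next 56.9), Cyp26a1 (26.6, next 13.11), Etnppl (213, next 129.8), Slc25a51 (147, next 105.2) and Sorbs3 (227, next 166). Other Dose I livers that stood apart were DI126 for Shmt2 (274 CPM, next 191) and DI123 for Tmed3 (13.03, next 10.39).

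In the HFD group H118 was highest for Plin2 (2555 CPM, next 957) and lowest for Acsm1 (580, next 721) and Nr1i3 (189.9, next 254). H111 was highest for Acly (476, next 194) and Gldc (182, next 124.8), and H113 was lowest for Slc22a5 (21.3, next 37.5) and Copb2 (104.4, next 118.9). H115 was highest for Smim13 (7.44, next 5.39), H116 for Cd163 (31.0, next 16.3) and H119 for Vasn (54.1, next 43.3).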

How the results depend on the processing

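Higher and lower calls in Dose I against HFD, and calls among listed genes, numbered 14, 3 and 12 as reported. They were 56, 23 and 53 with DESeq2, 5, 0 and 3 with all 38 libraries, 5, 1 and 4 with the libraries compared only and 4, 1 and 4 at a threshold of 0.05. Without a filter 6 were higher and 6 listed, and without the length trend 5 were lower. On log2(TPM + 1) and on log2(TPM + 0.1), limma called 3 higher, 5 lower and 6 listed, so that 37.5% of calls were higher and not 82.4%. The deposited TPM were used without scaling between libraries. On them the median log2 fold change of all tested genes was -0.0488 and -0.0591, against 0.00154 in the main fit. RLE scaling and the filter at 10 counts kept each count within 1.5 times. With 1 liver left out, higher calls ranged from 3 to 47, lower calls from 1 to 34 and listed calls from 3 to 49. Against 17 in all, the livers that moved the total by over 1.5 times were H113, H117 and H118 (4 each), H114 (5), H116 (7), H115 (8), DI128 (5), DI127 (6), DI121 (8), DI126 (10), DI123 (28), DI120 (41), DI122 (81) and, in Dose II, DII131 and DII132 (7 each), DII136 (9) and DII138 (10). The count of 0 for Dose II against Dose I held in every setting. List medians kept within the spread of the HFD livers, except antioxidant and metal stress (-0.0228 on either TPM scale) and the methionine cycle (-0.0441 on log2(TPM + 0.1)). Named genes whose sign turned were all uncalled and near 0. Cdo1 was at -0.0236 and -0.0237 and Gclc at -0.0636 and -0.0655 on the TPM scales. With 1 liver left out, Gclc ranged from -0.0822 to 0.132, Alb from -0.0697 to 0.00403 and Nmrk1 from -0.0694 to 0.00542. The cause of these differences was not tested. No paired analysis was possible because the groups share no replicate number. Depth limits the genes under about 1 CPM, which were mostly left out by the filter.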

Other observations

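Some genes outside the comparisons above had values that pass in DESeq2 alone. Of them, Snai3 and Sorbs3 are named after their values were seen. Snai3, a transcription factor of the snail family, was at 70.7 CPM (42.7 to 114.9) in HFD livers and 114.1 CPM (72.6 to 179) in Dose I livers, with a log2 fold change of 0.68 ± 0.17 (edgeR adjusted p = 0.114, DESeq2 adjusted p = 0.0220). Sorbs3, which encodes the adaptor protein vinexin, was at 121.7 CPM (88.4 to 154) and 161 CPM (120.9 to 227), or 0.44 ± 0.11 (edgeR adjusted p = 0.114, DESeq2 adjusted p = 0.0222). Creg1, a glycoprotein of lysosomes, was at 307 CPM (262 to 326) and 350 CPM (280 to 401), or 0.21 ± 0.06 (edgeR adjusted p = 0.157, DESeq2 adjusted p = 0.0250). Creg1 and Lgmn, described below, are the members of smallest p among 58 tested lysosome genes. None of the 58 passed in edgeR, and the list median was -0.02. Among them 26 were positive and 32 negative, beside 4590 and 4509 of all 9099 tested genes.

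Smoc2, a secreted protein of the matrix that is listed as a stellate cell marker, ran against the median of its list. It was at 984 CPM (740 to 1955) in HFD livers and 2082 CPM (749 to 2670) in Dose I livers, with 0.78 ± 0.21 on the log2 scale (edgeR adjusted p = 0.147, DESeq2 adjusted p = 0.0363). From control to HFD its log2 fold change was -0.58 (edgeR adjusted p = 0.0417). Col1a1, a defining marker of the same cells, was at -0.47 ± 0.29. Lgmn, a lysosomal protease that macrophages also express, was at 75.3 CPM (60.8 to 114.9) in HFD and 56.3 CPM (49.1 to 88.0) in Dose I (-0.43 ± 0.11, edgeR adjusted p = 0.128, DESeq2 adjusted p = 0.0309).

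The 51 nuclear genes of oxidative phosphorylation, which had a median log2 fold change of 0.30 from control to HFD, had 0.07 in Dose I against HFD, with 46 positive and none called. The 21 tested genes of the cytosolic ribosome had 0.42 and 0.11, with 20 positive and none called in Dose I against HFD. Of all 9099 tested genes, 4590 were positive in Dose I against HFD. Cd14, listed as a macrophage marker and named after its values were seen, had a positive log2 fold change of 0.49 (edgeR adjusted p = 0.487) where most of that list was negative.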
